A study of Mus musculus with 9 samples.

Results

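Hedgehog signalling was described through 9 of the 43629 genes listed in the count table of mouse embryonic fibroblasts (MEFs): *Ptch1*, *Smo*, *Gli1*, *Gli2*, *Gli3*, *Sufu*, *Hhip*, *Boc* and *Gas1*. They were chosen by name, as receptors, co-receptors, inhibitors and transcription factors of a pathway reported as weakened in Down syndrome models, and each symbol matched a single Ensembl gene in GENCODE M21. The study grew MEFs from 4 wild-type (WT) and 5 Dp1Tyb littermate embryos at E14.5 and sequenced their polyadenylated RNA. Dp1Tyb mice carry the duplication Dp(16Lipi-Zbtb21)1TybEmcf of mouse chromosome 16 (Mmu16), and the strain label of both groups names C57BL/6J and 129P2. Embryos had been decapitated and eviscerated before trypsin treatment, so each culture was a mixed outgrowth of the remaining body. The growth conditions name serum but no hedgehog ligand or agonist.

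The pathway carries a secreted signal to the nucleus through the primary cilium. Without ligand, Ptch1 keeps the membrane protein Smo inactive, and Gli2 and Gli3 are held by Sufu or processed into repressors. When Sonic, Indian or Desert hedgehog binds Ptch1 together with the co-receptors Boc, Cdon or Gas1, Smo is released and Gli activators reach the nucleus, where *Gli1*, *Ptch1* and *Hhip* are among the genes they switch on. In the embryo, mesenchymal cells are a main target of the signal, and cultured fibroblasts are a common model of its response.

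Of the 9 genes, 7 were matched in a RefSeq promoter set of build GRCm38.p6, while *Gli1* and *Boc* were not. The 250 bases before the start site are shown for *Gas1*, *Gli2* and *Hhip*, the genes whose levels varied most between cultures, each 5′ to 3′ on the gene's strand. They lie at chr13:60177536-60177785, chr1:119053620-119053869 and chr8:80058009-80058258, all on the minus strand. Capitals mark matches to ACCACCC on either strand, the inner 7 letters of the Gli recognition sequence GACCACCCA.
Gas1: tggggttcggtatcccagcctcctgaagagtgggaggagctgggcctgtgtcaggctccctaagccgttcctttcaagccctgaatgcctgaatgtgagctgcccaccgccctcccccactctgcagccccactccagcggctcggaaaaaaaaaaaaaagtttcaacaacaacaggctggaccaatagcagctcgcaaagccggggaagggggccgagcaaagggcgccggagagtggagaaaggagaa
Gli2: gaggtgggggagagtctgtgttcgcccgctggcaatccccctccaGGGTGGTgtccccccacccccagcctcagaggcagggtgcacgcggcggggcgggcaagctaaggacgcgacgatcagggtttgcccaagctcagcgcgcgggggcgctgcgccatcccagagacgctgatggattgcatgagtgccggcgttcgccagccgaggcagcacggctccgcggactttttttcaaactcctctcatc
Hhip: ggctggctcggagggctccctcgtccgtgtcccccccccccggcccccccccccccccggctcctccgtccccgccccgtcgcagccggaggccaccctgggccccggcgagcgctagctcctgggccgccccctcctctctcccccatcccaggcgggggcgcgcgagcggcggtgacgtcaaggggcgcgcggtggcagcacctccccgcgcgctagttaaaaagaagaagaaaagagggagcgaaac
The 9-letter sequence was in none of the 7 windows, against 0.225% of 32851 promoter windows of the same length. The 7-letter core, which lies within the longer sequence, was in the *Gli2* window alone, on the reverse strand and beginning 205 bases before the start site, against 3.92% of all windows. A match is only a match of letters.

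None of the 9 genes lies in the duplicated region, taken from *Lipi* to *Zbtb21* on Mmu16. *Boc* is on the same chromosome (16, from 44485049 to 44558897, minus strand), 31.0 Mb proximal of the region. Total counts were between 24804539 and 30009361 per culture. Over the 89 tested genes of the duplicated region, the median log2 expression relative to the WT mean was 0.559 ± 0.033 (SD, n = 5) in Dp1Tyb and 0.005 ± 0.036 (SD, n = 4) in WT cultures, with no overlap (p = 0.0079 in a two-sided exact permutation test of the genotypes, the lowest value the design can reach). WT replicate 1 and Dp1Tyb replicate 2 stood apart across the transcriptome. The first was the highest culture for 24.9% and the lowest for 23.2% of the 14567 tested genes, and the second the highest for 27.1% and the lowest for 27.0%, so neither was extreme in one direction only.

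Levels were compared between genes per exon length, as RPKM, which divides CPM (a gene's share of the library, scaled by TMM factors) by kilobases of exon. *Gas1*, which encodes a membrane-anchored co-receptor, was the most abundant of the 9 at 70.8 ± 29.1 RPKM (SD, n = 9). *Smo*, the signal transducer, followed at 24.2 ± 2.98 RPKM, then the co-receptor *Boc* at 14.7 ± 6.54 and *Gli3*, the main repressor of the family, at 8.94 ± 1.51 (SD, n = 9 each). The inhibitor *Sufu* had 4.14 ± 0.328 RPKM and *Gli2*, the main activator, 3.88 ± 1.53 (SD, n = 9 each), and these neighbours in the order did not differ beyond their spread. The genes that respond to the signal were the least abundant. *Ptch1* had 0.672 ± 0.104, *Hhip* 0.506 ± 0.434 and *Gli1* 0.122 ± 0.055 RPKM (SD, n = 9 each). *Ptch1* and *Hhip* did not differ beyond their spread, and neither did *Hhip* and *Gli1* or *Boc* and *Gli3*, although *Boc* was above *Gli3* in each of the 9 cultures.

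**Figure D1:**
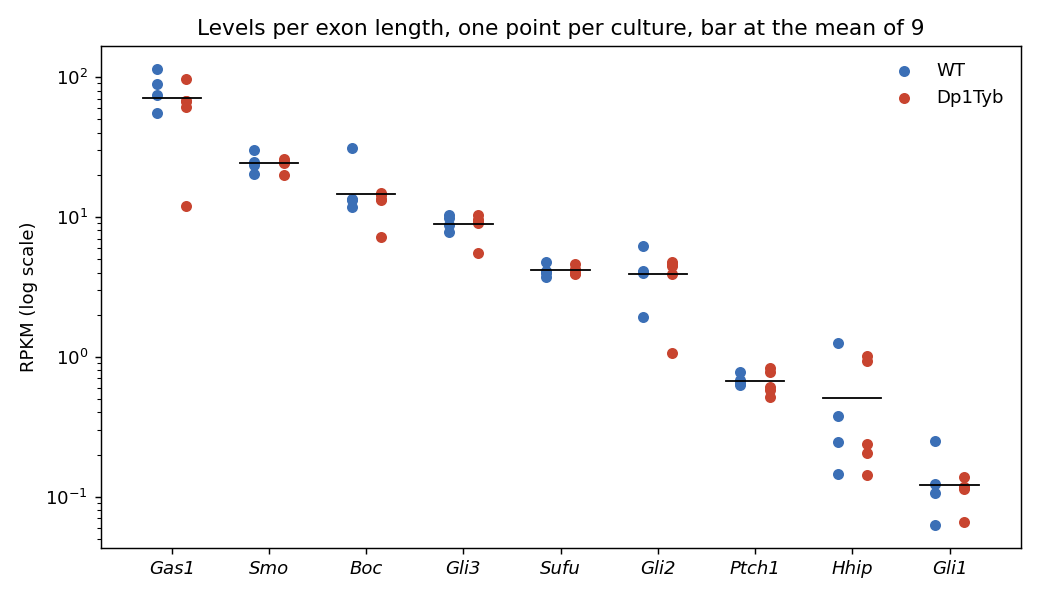
Levels of the 9 hedgehog pathway genes in RPKM on a log scale, with one point per culture (WT blue, Dp1Tyb red) and a bar at the mean of the 9 cultures. *Gas1* is highest at 70.8 RPKM and *Gli1* lowest at 0.122 RPKM, and the WT and Dp1Tyb points overlap for every gene.

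The question put to these genes was whether their expression differed between Dp1Tyb and WT MEFs. It did not pass the test for any of them. With edgeR's quasi-likelihood fit and p-values adjusted over all 14567 tested genes by Benjamini-Hochberg, 0 of the 9 had an adjusted p below 0.05, against 0.165% of all tested genes (24 genes, all higher in Dp1Tyb and 22 of them in the duplicated region, which leaves 2 of 14478 outside it), and each adjusted p was 0.9997. At an unadjusted p below 0.05 there were also 0 of 9, against 3.13% of tested genes, and DESeq2 gave 0 of 9 on either criterion. For each of the 9 genes the levels of the genotypes overlapped, while for 1.36% of tested genes they did not (Dp1Tyb above WT for 0.686% and below for 0.673%). All 9 passed edgeR's filter on low counts. In cultures of mixed cells, fewer cells of a type and less RNA per cell cannot be told apart.

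*Ptch1* (ENSMUSG00000021466, chromosome 13, 63508328 to 63573598) encodes the hedgehog receptor and is itself a target of the signal. Its CPM in WT replicates 1 to 4 was 11.03, 9.21, 9.71 and 8.94, and in Dp1Tyb replicates 1 to 5 it was 11.1, 11.7, 7.34, 8.58 and 8.17. The Dp1Tyb cultures held both the highest and the lowest value, and the WT cultures lay between. Dp1Tyb vs WT MEFs gave a log2 fold change of -0.05, with a 95% confidence interval from -0.40 to 0.30.

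*Smo* (ENSMUSG00000001761, chromosome 6, 29735503 to 29761365) encodes the transducer that Ptch1 restrains. Its CPM was 168.8, 114, 131 and 139.6 in the WT replicates and 138.9, 112, 145, 136 and 138 in the Dp1Tyb replicates. Apart from WT replicate 1 on the high side and replicate 2 of each genotype on the low side, the cultures lay within a narrow range. At -0.04, the log2 fold change was close to 0, with a 95% confidence interval from -0.31 to 0.22, and its sign changed without WT replicate 1 (0.07).

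Both co-receptors had lower fitted levels in Dp1Tyb MEFs, by amounts within the spread between cultures. *Boc* (ENSMUSG00000022687) had a CPM of 138, 52.1, 59.4 and 58.8 in the WT replicates and 58.7, 31.9, 66.2, 64.0 and 59.5 in the Dp1Tyb replicates. WT replicate 1 stood far above and Dp1Tyb replicate 2 far below the other 7 cultures, which lay close together in both genotypes. The log2 fold change of *Boc* was -0.46, with a 95% confidence interval from -1.17 to 0.24, and without WT replicate 1 it was -0.02. *Gas1* (ENSMUSG00000052957, chromosome 13, 60174405 to 60177365) had a CPM of 339.5, 163, 263 and 219.8 in the WT replicates and 181, 35.3, 286, 199.8 and 199.8 in the Dp1Tyb replicates. Dp1Tyb replicate 2 was again the lowest, WT replicate 1 again the highest, and the culture with the most *Gas1* after it was of the Dp1Tyb genotype. The log2 fold change of *Gas1* was -0.45, with a 95% confidence interval from -1.48 to 0.58, and without Dp1Tyb replicate 2 it was -0.19.

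The inhibitors behaved in opposite ways across cultures. *Sufu* (ENSMUSG00000025231, chromosome 19, 46396896 to 46488804), which binds Gli proteins and keeps them out of the nucleus, was the steadiest of the 9 genes. Its CPM ran from 28.7 to 36.5 in WT and from 30.01 to 35.2 in Dp1Tyb cultures. Its log2 fold change was -0.01 with a 95% confidence interval from -0.20 to 0.18. The value was close to 0, and its sign changed with DESeq2's size factors (0.0019) and in other settings. *Hhip* (ENSMUSG00000064325, chromosome 8, 79965851 to 80058006) encodes a membrane protein that binds and sequesters the ligands, and it was the most variable of the 9. Its CPM was 2.23, 11.4, 3.43 and 1.33 in the WT replicates and 9.24, 8.43, 1.29, 1.88 and 2.16 in the Dp1Tyb replicates, from counts between 34 and 290. The values fell into 3 cultures at 8.43 CPM or more, which were WT replicate 2 and Dp1Tyb replicates 1 and 2, and 6 cultures at 3.43 CPM or less, with both genotypes in each. The genotype means were nearly equal, at a log2 fold change of 0.01 with a 95% confidence interval from -1.69 to 1.70, but the value was 0.98 without WT replicate 2 and -0.41 without Dp1Tyb replicate 1.

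**Figure D2:**
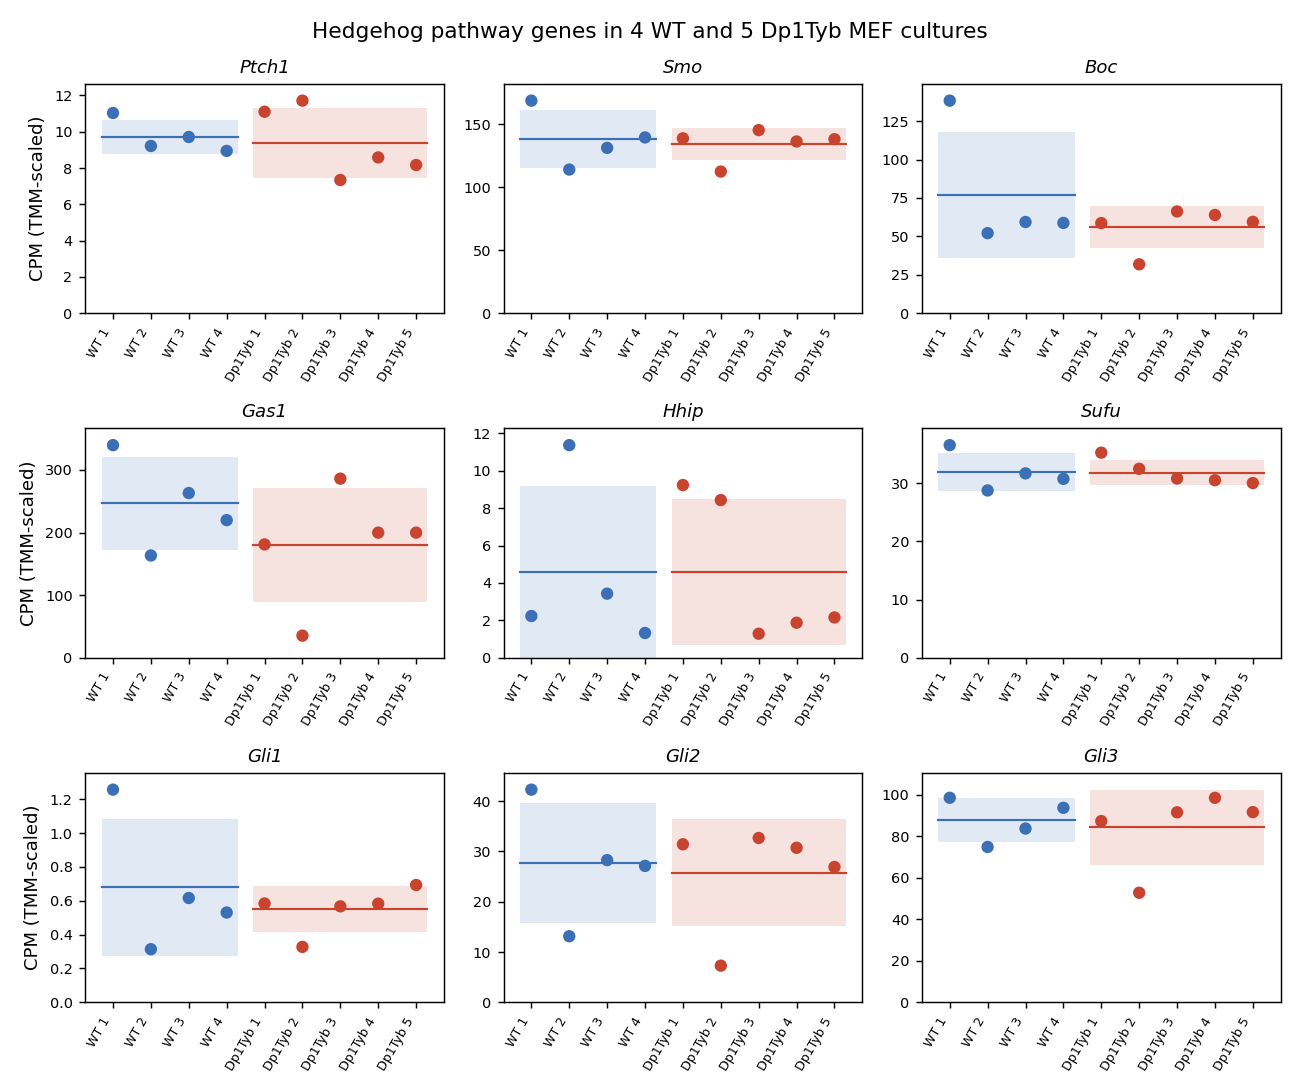
CPM (TMM-scaled) of each hedgehog pathway gene in each culture, with WT in blue and Dp1Tyb in red, and with the mean (line) and 1 SD (shading, ended at 0) of each genotype. WT 1 is the highest culture for 7 of the 9 genes, for *Gli3* by 98.46 against 98.44 CPM in Dp1Tyb 4. Dp1Tyb 2 is the lowest for 5, and the genotypes overlap in every panel.

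Of the transcription factors, *Gli1* (ENSMUSG00000025407, chromosome 10, 127329882 to 127341974), an activator that is made in response to the signal, had the fewest counts. There were between 8 and 40 counts per culture, which are 1.26, 0.314, 0.616 and 0.530 CPM in the WT replicates and 0.584, 0.328, 0.567, 0.583 and 0.693 CPM in the Dp1Tyb replicates. Replicate 2 of each genotype was low, WT replicate 1 was high, and the other 6 cultures differed little. Its log2 fold change was -0.31, with a 95% confidence interval from -1.19 to 0.56, and without WT replicate 1 it was 0.18. *Gli1* is overlapped on the opposite strand by *Arhgap9*, which had a mean of 17.2 counts against 16.6 for *Gli1*, and the strand option of the authors' counting is not given in the sources used here. The counts of *Gli1* are therefore uncertain.

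*Gli2* (ENSMUSG00000048402, chromosome 1, 118834132 to 119053619) and *Gli3* (ENSMUSG00000021318, chromosome 13, 15463235 to 15730026) showed the same extreme cultures. *Gli2* had a CPM of 42.3, 13.1, 28.3 and 27.1 in the WT replicates and 31.4, 7.29, 32.7, 30.7 and 26.9 in the Dp1Tyb replicates. *Gli3* had a CPM of 98.5, 74.8, 83.6 and 93.6 in the WT replicates and 87.2, 52.7, 91.5, 98.4 and 91.6 in the Dp1Tyb replicates. In both genes replicate 2 was the lowest culture of each genotype, by a wider margin in Dp1Tyb. The log2 fold change was -0.10 for *Gli2*, with a 95% confidence interval from -1.05 to 0.85. For *Gli3* it was -0.06, with a 95% confidence interval from -0.44 to 0.32. Both signs changed without Dp1Tyb replicate 2 (0.13 and 0.07) and without WT replicate 1 (0.18 and 0.0072).

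The fitted log2 fold change was below 0 for 8 of the 9 genes, with a median of -0.06, while 51.0% of all tested genes had a value above 0 and their median was 0.0027. The 9 genes share the same cultures and are not independent, and the count changed in either direction when single cultures were left out. Without WT replicate 1, 3 of the 9 were below 0, and without Dp1Tyb replicate 2, 6 of the 9. All 9 were below 0 without WT replicate 3, without WT replicate 4 or without Dp1Tyb replicate 1. Leaving out any other culture gave 6 to 8. The labels of replicate 1 of each genotype begin with MEF1 and those of the remaining 7 cultures with MEF2. What the prefix stands for is not stated, and it was read here as a first and a second set of cultures. Within the second set, 5 of the 9 were below 0, and the values ran from -0.64 for *Hhip* to 0.16 for *Gli1*, with an adjusted p of 0.9998 for each in edgeR. In the first set no test was possible, as it is a single pair. There *Boc* differed by -1.24, *Gli1* by -1.11, *Gas1* by -0.91 and *Hhip* by 2.05 on the log2 scale. *Ptch1* differed by 0.009 in that pair.

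**Figure D3:**
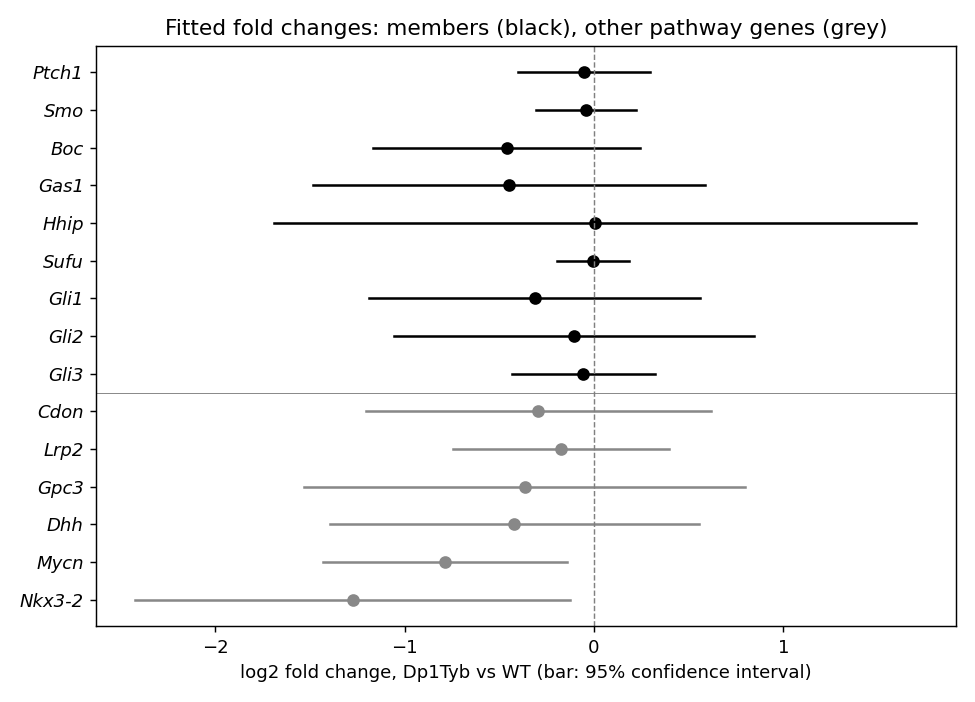
Fitted log2 fold changes of Dp1Tyb vs WT (points) with 95% confidence intervals (bars) from edgeR, for the 9 hedgehog pathway genes (black) and 6 other genes of the pathway (grey). The intervals of all 9 genes include 0, and they are narrowest for *Sufu* (-0.20 to 0.18) and widest for *Hhip* (-1.69 to 1.70).

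The spread between cultures of one genotype exceeded the difference between the genotypes for each of the 9 genes. The pooled SD of log2 CPM within genotypes was 1.31 for *Hhip*, 0.94 for *Gas1*, 0.84 for *Gli2*, 0.61 for *Gli1* and 0.54 for *Boc*, against a median of 0.22 over all tested genes. These 5 genes varied more than 83.6% or more of the tested genes, and *Hhip* more than 97.9%. *Gli3* (0.30) and *Ptch1* (0.24) were nearer the median, and *Smo* (0.19) and *Sufu* (0.12) lay below it.

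Set against each gene's WT mean, on the log2 scale after adding 0.1 CPM, Dp1Tyb replicate 2 was at -2.75 for *Gas1*, -1.80 for *Gli2*, -1.15 for *Boc*, -0.73 for *Gli1* and -0.72 for *Gli3*. Both co-receptors and all Gli genes were low together in this culture, while its *Hhip* (1.33) and *Ptch1* (0.27) were above the WT mean. WT replicate 2 had the same signs apart from *Ptch1* (-0.07) and *Sufu* (-0.14), with -0.96 for *Gli2*, -0.54 for *Gas1* and 1.75 for *Hhip*. WT replicate 1 was at 0.96 for *Boc*, 0.94 for *Gli1* and 0.72 for *Gli2*. Of 10 fibroblast markers, 7 were lowest in Dp1Tyb replicate 2, among them *Lum* (25.9 CPM, against 82.3 or more elsewhere) and *Pdgfra* (123 CPM, against 228 or more elsewhere). The remaining markers did not follow, as *Vim* was highest there (4919 CPM) and *Thy1* (899.9 CPM) and *Fn1* (18260 CPM) were not lowest. In WT replicate 1, 3 of the 10 were highest and 3 lowest. The part of these markers in the result was not tested.

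**Figure D4:**
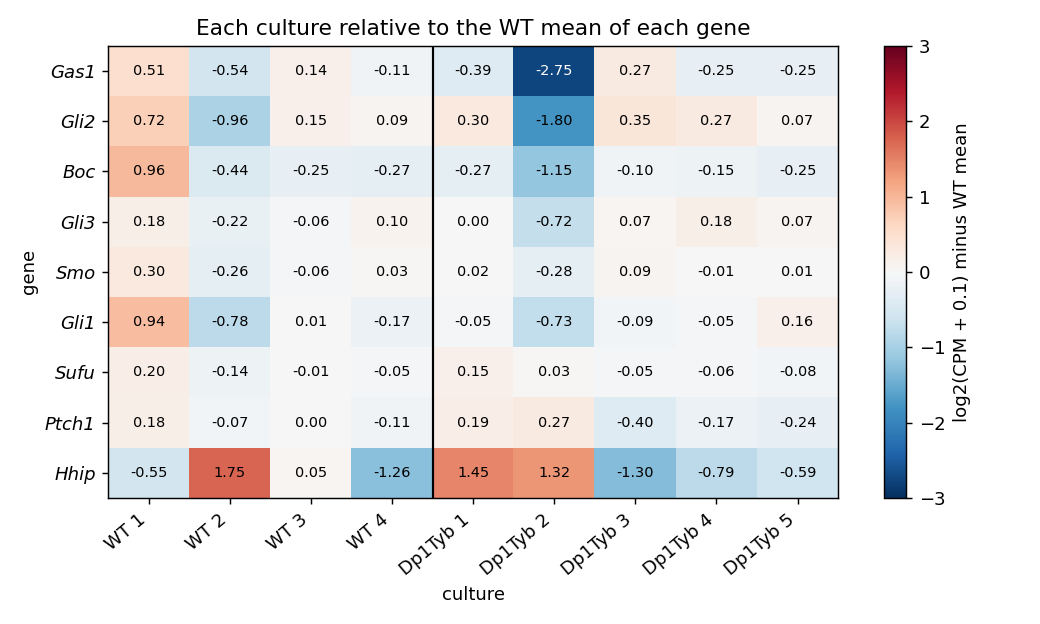
Log2(CPM + 0.1) of each gene in each culture minus its mean over the WT cultures, with blue for lower and red for higher and the value printed in each cell. Dp1Tyb 2 is lowest for *Gas1* (-2.75), *Gli2* (-1.80) and *Boc* (-1.15) and has a raised *Hhip* (1.33), and WT 2 shows the same signs for these 4 genes.

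Of the marker lists of other cell types, one separated the genotypes. Summed markers of Schwann cells and neural crest were between 30.7 and 62.3 CPM in WT and between 9.78 and 29.96 CPM in Dp1Tyb cultures. The other lists overlapped between the genotypes, and the part of any list in the results was not tested. Macrophage markers ran from 54.6 to 198 CPM in WT and from 14.0 CPM, in Dp1Tyb replicate 2, to 280.2 CPM in Dp1Tyb. Chondrocyte markers ran from 24.1 to 30.1 CPM in WT and from 24.6 to 52.0 CPM in Dp1Tyb, again with an extreme in Dp1Tyb replicate 2, which was the highest. Most of the sum in that culture was *Col2a1* (34.9 CPM). The other markers did not follow, as *Acan* and *Col9a1* (0.287 CPM each) were lowest there and *Sox9* (16.6 CPM) was not highest. Endothelial and epithelial markers were low throughout, at 17.2 CPM or less and 10.7 CPM or less. Neuronal markers ran from 24.1 to 72.7 CPM in WT and from 40.9 to 104 CPM in Dp1Tyb, with *Elavl3* at 3 counts or fewer in every culture. Skeletal muscle markers ran from 6.78 to 16.1 CPM in WT and from 13.0 to 38.2 CPM in Dp1Tyb, nearly all from *Des*, since the defining markers *Myod1*, *Myog*, *Myf5* and *Pax7* had 3 counts or fewer in every culture. The fibroblast markers, which define the labelled cell type, summed to between 41180 and 68270 CPM.

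*Gli1*, *Ptch1* and *Hhip* are often read together as the response to hedgehog signal, and none of the relations tested between their levels passed. *Gli1* and *Ptch1* had a Pearson r of 0.018 and a Spearman rho of -0.033 over the 9 cultures (exact permutation tests, two-sided, p = 0.964 and 0.948). Without WT replicates 1 and 2, which were farthest from the median of *Gli1*, r was -0.60 (exact permutation test, p = 0.144), and within the second set of cultures it was -0.62 (exact permutation test, p = 0.143). For *Hhip*, whose levels fell into separate clusters, the relation was tested within the 6 cultures with low levels and not over all 9. Over all 9, across both clusters, the r of *Hhip* was -0.55 with *Gli1* and 0.64 with *Ptch1*, and these values were not tested. The 3 cultures with high *Hhip* had 0.314, 0.584 and 0.328 CPM of *Gli1*, against 0.530 to 1.26 CPM in the other 6, and 9.21, 11.1 and 11.7 CPM of *Ptch1*, against 7.34 to 11.03 CPM. Within the 6, *Hhip* had an r of 0.34 with *Gli1* (rho 0.77) and of 0.58 with *Ptch1* (rho 0.71), with wide uncertainty at this n (exact permutation tests, two-sided, p = 0.501 and 0.103 for *Gli1*, and 0.224 and 0.136 for *Ptch1*). After adjustment over the 3 relations the p-values of r were 0.964, 0.752 and 0.671, and those of rho were 0.948, 0.204 and 0.204 (exact permutation tests, n = 9 or 6).

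The genes most like *Gli1* across the 9 cultures were *Atxn7l2* (Pearson r 0.988), *Skida1* (0.976), *Spice1* (0.974), *Nsmf* (0.967) and *Pkdcc* (0.966), chosen as the highest of all tested genes. They share with *Gli1* the libraries and the high WT replicate 1, and without that culture their r was between 0.933 and 0.971. The remaining cultures were also used to choose these genes, so this r is not a separate check of the likeness.

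Of 45 further genes of the pathway, 41 were tested and 0 passed an adjusted p below 0.05 in edgeR or in DESeq2, against 0.165% of all tested genes in edgeR. At an unadjusted p below 0.05 there were 2 in each tool. Over all genes there were 456 of 14567 tested (3.13%) in edgeR and 558 of 24467 fitted in DESeq2. The median log2 fold change of the 41 was -0.07. When each culture was left out, this median ran from -0.098 (without Dp1Tyb replicate 4) to -0.0061 (without WT replicate 1). It was -0.011 in the second set of cultures. The ligands were scarcely expressed. *Shh*, which encodes Sonic hedgehog, had at most 1 count per culture and *Ihh*, which encodes Indian hedgehog, at most 4, and neither was tested. *Dhh*, which encodes Desert hedgehog and is known from Schwann cells, had between 6 and 34 counts, with 0.883 ± 0.229 CPM (SD, n = 4) in WT and 0.658 ± 0.437 CPM (SD, n = 5) in Dp1Tyb cultures.

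Among other proteins that bind the ligands, the co-receptor gene *Cdon*, a relative of *Boc*, had 318 CPM in WT replicate 1, between 114 and 133 CPM in the other WT cultures and between 52.4 and 190.1 CPM in Dp1Tyb cultures. It had the same highest and lowest cultures as *Boc*. *Gpc3*, a glypican that competes with Ptch1 for ligand, had 155 CPM in WT replicate 1, between 42.3 and 46.7 CPM in the other WT cultures and 98.5, 16.5, 60.7, 51.0 and 53.2 CPM in Dp1Tyb replicates 1 to 5, so that all Dp1Tyb cultures but replicate 2 were above those 3 WT cultures. Without WT replicate 1 the log2 fold change went from -0.29 to 0.19 for *Cdon* and from -0.37 to 0.33 for *Gpc3*. *Lrp2*, a large endocytic receptor, had 13.5 ± 3.15 CPM (SD, n = 4) in WT and 11.9 ± 3.97 CPM (SD, n = 5) in Dp1Tyb cultures.

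The other groups of the pathway gave no call either. All 5 genes of ligand processing and release, 13 transducers and kinases and 6 genes of Gli turnover were tested, with median log2 fold changes of 0.05, -0.03 and 0.01. Of 14 mesenchymal target genes 12 were tested, with a median of -0.24. Of the 12, 9 had a value below 0, while 51.0% of all tested genes had a value above 0. The target genes share the same cultures and are not independent. Those with an unadjusted p below 0.05 in edgeR were *Mycn*, a driver of proliferation, and *Nkx3-2*, a homeobox gene of the early skeleton. *Mycn* had 1.27 ± 0.409 CPM (SD, n = 4) in WT and 0.733 ± 0.200 CPM (SD, n = 5) in Dp1Tyb cultures, a log2 fold change of -0.79 with an adjusted p of 0.9997 in edgeR. *Nkx3-2* had 3.52 CPM in WT replicate 1, between 0.568 and 1.18 CPM in the other WT and between 0.409 and 0.876 CPM in the Dp1Tyb cultures. Its log2 fold change was -1.27 with an adjusted p of 0.9997 in edgeR, and it was -0.46 without WT replicate 1.

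The primary cilium, the organelle in which Smo acts, was represented by 19 genes of intraflagellar transport and the ciliary membrane. All were tested and 0 had an adjusted p below 0.05, or an unadjusted p below 0.05, in edgeR or DESeq2. Over all tested genes these shares were 0.165% and 3.13% in edgeR. The median log2 fold change of the 19 was 0.02, with values from -0.22 to 0.09. Of the 19, 13 were lowest in Dp1Tyb replicate 2, against 27.0% of all tested genes, and 12 were highest in WT replicate 1, against 24.9%. These cultures were also extreme for *Gas1*, *Boc*, *Gli2* and *Gli3*. *Dync2h1*, which encodes the motor of retrograde ciliary transport and had the lowest fold change of the list, had 34.5 CPM in WT replicate 1 and 11.5 CPM in Dp1Tyb replicate 2, and between 16.1 and 23.6 CPM in the other 7 cultures.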

How the data were processed

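RNA from 4 WT and 5 Dp1Tyb MEF cultures was measured, grouped by the labels. The authors trimmed adapters with Trim Galore, mapped paired reads to GRCm38 with TopHat 2.0.12, discarded multialigning reads and deposited counts per Ensembl gene from htseq-count. The strand option and annotation release are not given in the sources used here. The deposited scaled counts and the authors' DESeq2 results (means, fold changes, errors and p-values) were not used.

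The members and gene lists were chosen with earlier results of these data known. Of 43629 listed genes, 42462 matched GENCODE M21. Counts were tested with edgeR 4.0.16 in R 4.3.3 (TMM, filterByExpr, quasi-likelihood test, genotype as the only term, two-sided, threshold 0.05 after Benjamini-Hochberg adjustment). The fit was run on simulated counts, drawn independently with the same dispersion for every gene. Its behaviour for genes as variable as *Hhip* was therefore not tested. RPKM used TMM-scaled CPM and the summed length of all exons in kilobases. Within-genotype SDs used log2(CPM + 0.01), and correlations log2(CPM + 0.1). Correlations with *Hhip* had been planned over all 9 cultures and were tested over 6, since its levels fell into separate clusters. Floors of 3 counts cover counting error only.

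Named genes were the 9 members, the ligands, 4 further ligand-binding proteins (1 of them is not reported here), listed genes with an unadjusted p below 0.05 or without overlap, and the 5 genes most like *Gli1*, with markers, *Dync2h1* and *Arhgap9* added after values were seen. Alternatives were DESeq2 1.42.0 and its size factors, TMM without the duplicated region, no filter, at least 10 counts in every culture, the culture set as covariate, the second set alone, the replicate block and each culture left out. Further steps ran in Python 3.11.15 (scipy 1.17.1, pandas 2.3.3, numpy 2.4.6, matplotlib 3.10.9).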

Additional observations from a re-analysis of the deposited data

Results flagged for a closer look

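A culture was flagged where its gap to the next one exceeded Dixon's 95% critical value for its genotype. Of 35 groups examined, 7 were flagged, against about 1 in 20 by chance, and they involved 2 cultures only. Dp1Tyb replicate 2 was below the other Dp1Tyb cultures for *Smo* (112 CPM against 136 to 145), *Gli2* (7.29 CPM against 26.9 to 32.7), *Gli3* (52.7 CPM against 87.2 to 98.4) and *Boc* (31.9 CPM against 58.7 to 66.2). WT replicate 1 was above the other WT cultures for *Boc* (138 CPM against 52.1 to 59.4), *Cdon* (318 CPM against 114 to 133) and *Gpc3* (155 CPM against 42.3 to 46.7). The genes share these libraries, so the flags are not independent.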

How the results depend on the processing

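None of the 9 genes passed an adjusted p of 0.05 under any alternative (152 values, lowest adjusted p 0.8798), and 124 of the values kept their direction while 28 reversed it. *Gli1* could not be tested with at least 10 counts in every culture. *Boc* and *Gas1* kept theirs throughout, with -0.61 to -0.02 and -0.68 to -0.19 when each culture was left out. The cause of the reversals was not tested. *Sufu*, at -0.0056, was near enough to 0 for a shift of all genes alike to turn its sign, and reversed to 0.0019 with DESeq2's size factors, 0.0027 with DESeq2, 0.0085 with the culture set as a covariate, 0.026 in the second set and 0.018 with the replicate block. *Hhip* reversed to -0.10 with the covariate and -0.64 in the second set. In the second set *Smo* was 0.053, *Gli1* 0.16, *Gli2* 0.095, *Cdon* 0.058 and *Gpc3* 0.027. When each culture was left out, the range was -0.54 to 0.18 for *Gli1*, -0.34 to 0.18 for *Gli2*, -0.12 to 0.073 for *Gli3*, -0.41 to 0.98 for *Hhip*, -0.14 to 0.024 for *Ptch1*, -0.13 to 0.068 for *Smo*, -0.052 to 0.068 for *Sufu*, -0.45 to 0.19 for *Cdon* and -0.66 to 0.33 for *Gpc3*. The correlation of *Gli1* and *Ptch1* was -0.017 with size factors, -0.0086 after centring on genotype means, -0.60 without the 2 farthest cultures and -0.62 in the second set, and ran from -0.45 without WT replicate 1 to 0.36 without Dp1Tyb replicate 2.

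Across all tested genes, 24 were called, against 68 with DESeq2, 1 in the second set and 0 with the replicate block. When each culture was left out there were 2 (without WT replicate 2 or 3) to 26 (without Dp1Tyb replicate 2). Genes with an unadjusted p below 0.05 numbered 456, against 696 with no filter and 800 with the replicate block. Deviations of same-numbered cultures correlated at 0.31, 0.77, 0.04 and 0.37, and 1 of 4 WT cultures correlated best with its own number. The numbers were therefore not used as pairs, although replicate 1 of each genotype shared the label prefix read as the first culture set. Scaling moved the median log2 fold change of all genes to 0.0096 at most. With 4 and 5 cultures, the intervals of *Hhip*, *Gas1*, *Gli1*, *Boc* and *Gli2* still include changes of more than 1 on the log2 scale.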
